A study of Rattus norvegicus with 65 samples.

Results

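The 10 genes described here encode chemokines and cytokines: the chemokines Ccl2, Ccl7, Cxcl1, Cxcl10, Cxcl12 and Cx3cl1, the colony-stimulating factor Csf1, the gp130 ligands Lif and Il6, and the alarmin Il33. They were taken by symbol from a table of 14554 genes, as a list chosen with earlier results of these data known. All 10 had a row. Their transcripts were read by RNA sequencing of primary cardiomyocytes from newborn rats, which are beating heart muscle cells.

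The cells had come from several litters and were mixed before plating, then starved of serum overnight before exposure. The libraries are therefore parallel wells of a shared preparation, and p-values measure the spread between wells. Cells were exposed for 6 or 24 hours to 10 mM 5-fluorouracil (5FU, an antimetabolite), 2.5 mM acetaminophen (Ace, an analgesic) or 1.25 uM doxorubicin (Dox, an anthracycline). The DMSO1 wells held 1% DMSO, as did the 5FU wells, and the DMSO2 wells held 0.25% DMSO, as did the Ace and Dox wells. The 65 libraries form 10 groups of 6 or 7 (6 for DMSO1, 5FU and Ace at 6 hours, and 7 for DMSO2, Dox and Ace at 24 hours). Ace and Dox were compared with the same DMSO2 wells.

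Chemokines are small secreted proteins that direct the movement of leukocytes through G protein-coupled receptors. Ccl2 and Ccl7 recruit monocytes, Cxcl1 recruits neutrophils, Cxcl10 is an interferon-inducible ligand for activated T cells, Cx3cl1 (fractalkine) is tethered to the membrane, and Cxcl12 is made constitutively by stromal cells. Csf1 supports macrophage survival, Lif and Il6 signal through the shared receptor chain gp130 (Il6st) to JAK and STAT proteins, and Il33 is held in the nucleus of stromal cells and released upon damage. Several of these genes are textbook targets of the transcription factors NF-kB and AP-1.

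Because several of these genes are known targets of a few transcription factors, the sequences before their start sites were read for the letters those factors recognize. RefSeq promoter windows of the rat assembly GRCr8 were matched for 7 of the 10 genes. Windows for Ccl2, Lif and Csf1 were not used here. Each window holds 250 bases before the annotated start and 50 after it. The motifs searched on both strands were NF-kB, AP-1 (TGANTCA), C/EBP (TTGCNNAA) and the interferon-stimulated element ISRE (GAAA-NN-GAAA). NF-kB letters were found in 4 of the 7 genes (Ccl7, Cxcl1, Cxcl10 and Il6) and in 7.51% of 33469 windows. A gene was counted if any of its windows matched, whereas the percentages are shares of single windows, so the 2 are not alike. The 4 windows with NF-kB letters are printed below, with that of Cxcl12 beside them as the homeostatic chemokine, in which none of the motifs was found. Each run is the 250 bases before the start, 5′ to 3′ on the gene's strand, with motif matches in capitals and adjoining or overlapping matches run together.
Ccl7 promoter, chr10:67513845-67514094, plus strand: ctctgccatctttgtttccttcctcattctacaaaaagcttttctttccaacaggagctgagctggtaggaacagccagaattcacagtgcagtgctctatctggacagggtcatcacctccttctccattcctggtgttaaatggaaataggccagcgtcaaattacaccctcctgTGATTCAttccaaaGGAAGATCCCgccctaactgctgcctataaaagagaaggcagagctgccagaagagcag
Cxcl1 promoter, chr14:17479322-17479571, minus strand: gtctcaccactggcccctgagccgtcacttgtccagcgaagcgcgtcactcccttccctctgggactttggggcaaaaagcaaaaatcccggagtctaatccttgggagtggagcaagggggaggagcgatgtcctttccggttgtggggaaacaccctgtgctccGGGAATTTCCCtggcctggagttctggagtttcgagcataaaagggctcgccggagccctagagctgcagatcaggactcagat
Cxcl10 promoter, chr14:15988816-15989065, plus strand: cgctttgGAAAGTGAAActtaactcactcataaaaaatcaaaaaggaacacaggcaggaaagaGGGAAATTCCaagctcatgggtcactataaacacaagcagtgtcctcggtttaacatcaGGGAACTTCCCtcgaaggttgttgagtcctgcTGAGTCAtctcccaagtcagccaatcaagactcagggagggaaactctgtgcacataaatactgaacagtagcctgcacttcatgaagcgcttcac
Il6 promoter, chr4:5894576-5894825, minus strand: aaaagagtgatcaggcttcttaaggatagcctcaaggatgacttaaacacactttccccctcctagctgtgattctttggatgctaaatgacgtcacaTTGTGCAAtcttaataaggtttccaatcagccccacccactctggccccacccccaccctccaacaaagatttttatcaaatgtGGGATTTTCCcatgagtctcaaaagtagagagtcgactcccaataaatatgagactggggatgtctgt
Cxcl12 promoter, chr4:152060531-152060780, plus strand: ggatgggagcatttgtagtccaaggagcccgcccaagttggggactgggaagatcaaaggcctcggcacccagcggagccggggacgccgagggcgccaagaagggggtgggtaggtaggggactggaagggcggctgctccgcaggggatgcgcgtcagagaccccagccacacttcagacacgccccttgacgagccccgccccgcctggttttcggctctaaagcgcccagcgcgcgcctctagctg
The capitals of Ccl7 are an AP-1 and an NF-kB match, those of Cxcl1 are an NF-kB match on either strand, and those of Il6 are a C/EBP and an NF-kB match. In Cxcl10 they are, in order, the ISRE, an NF-kB match, a second NF-kB match read on either strand, and AP-1. AP-1 letters were found in 2 of the 7 genes against 7.33% of all windows. C/EBP letters were in 2 genes against 10.6%, in Il33 only in a second start-site window. ISRE letters were in 1 gene against 3.92%. These matches are descriptions of the letters, and a window without a match shows only that the letters are not in it.

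**Figure D1:**
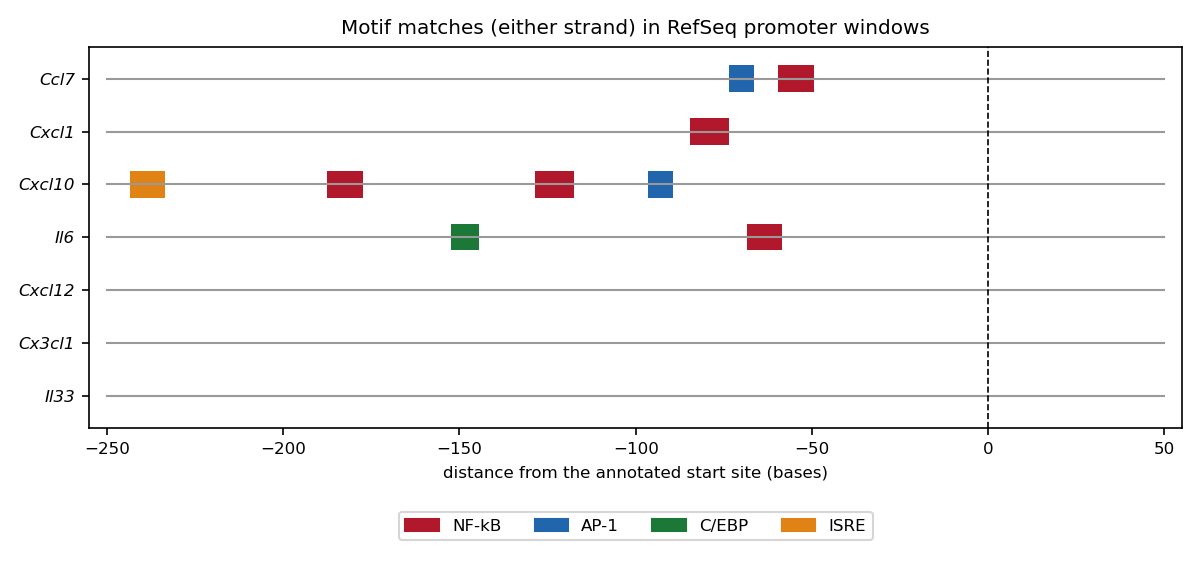
Motif matches on either strand in the RefSeq promoter windows of 7 chemokine and cytokine genes; the x axis is the distance from the annotated start site in bases, each grey line is a window (for Il33, the first of its windows), and colored boxes are matches. Ccl7, Cxcl1, Cxcl10 and Il6 hold NF-kB letters, whereas the windows of Cxcl12, Cx3cl1 and Il33 drawn here hold none of the 4 motifs.

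Library totals ran from 14332827 to 25738297 counts. Levels are given as CPM (counts scaled to the size of the library) after TMM scaling, as the median with the lowest and the highest library, and are compared between groups but not between genes, whose lengths differ. Of the 65 libraries, 62 were nearest to the mean of their own group over 10817 genes. A DMSO1 library at 6 hours (library 3) was nearer to the DMSO2 mean (root mean square difference in log2 CPM 0.178) than to that of its own group (0.286). A further 5 libraries lay more than 1.5 times as far from their group's mean as the group's median library: DMSO1 at 24 hours library 1, 5FU at 6 hours library 1, Dox at 6 hours libraries 4 and 7, and Dox at 24 hours library 7. Library numbers are labels only. Calls that changed without these 6 libraries are given beside the results. Cardiomyocyte markers were abundant, with 11 of 12 in the table and a summed level of 42854.3 to 71894.4 CPM over the DMSO1 libraries.

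The question for each comparison was whether a drug changed the transcript against its own DMSO control at its own time. Fold changes and FDR values came from edgeR's quasi-likelihood test with Benjamini-Hochberg adjustment over all 14554 genes, and a gene was called higher or lower at an FDR below 0.01. Fold changes are on the log2 scale with their standard error (SE).

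At 24 hours in Dox, 9 of the 10 genes were called, 7 higher and 2 lower. Over all genes 81.4% were called, 40.4% higher and 41% lower, so a call by itself was the rule in this comparison. The median log2 fold change of the 10 genes was 1.64, against 0.0028 over all genes. These medians keep the sign, and over all genes about as many rose as fell, so they do not compare the sizes of change. The 9 called genes had no overlap between the Dox and DMSO2 libraries, which was so for 68.2% of all genes.

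In 5FU, 3 genes were higher and 3 lower at 6 hours (over all genes, 23.4% higher and 24.5% lower), and 4 were higher and 2 lower at 24 hours (28% and 27.8%). In Ace, none was higher and 4 were lower at 6 hours (16.5% and 15.2%), and 4 were higher and 2 lower at 24 hours (18.2% and 19.1%). In Dox at 6 hours, 3 were higher and 3 lower (31.5% and 32.7%). The drug and control libraries did not overlap for 3 of the 10 genes in 5FU at 6 hours (28.2% of all genes), 2 in 5FU at 24 hours (42.9%), 1 in Ace at 6 hours (24.5%), 4 in Ace at 24 hours (26.9%) and 6 in Dox at 6 hours (42.6%). The plot of levels shows every library, and the plot of fold changes shows the calls.

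**Figure D2:**
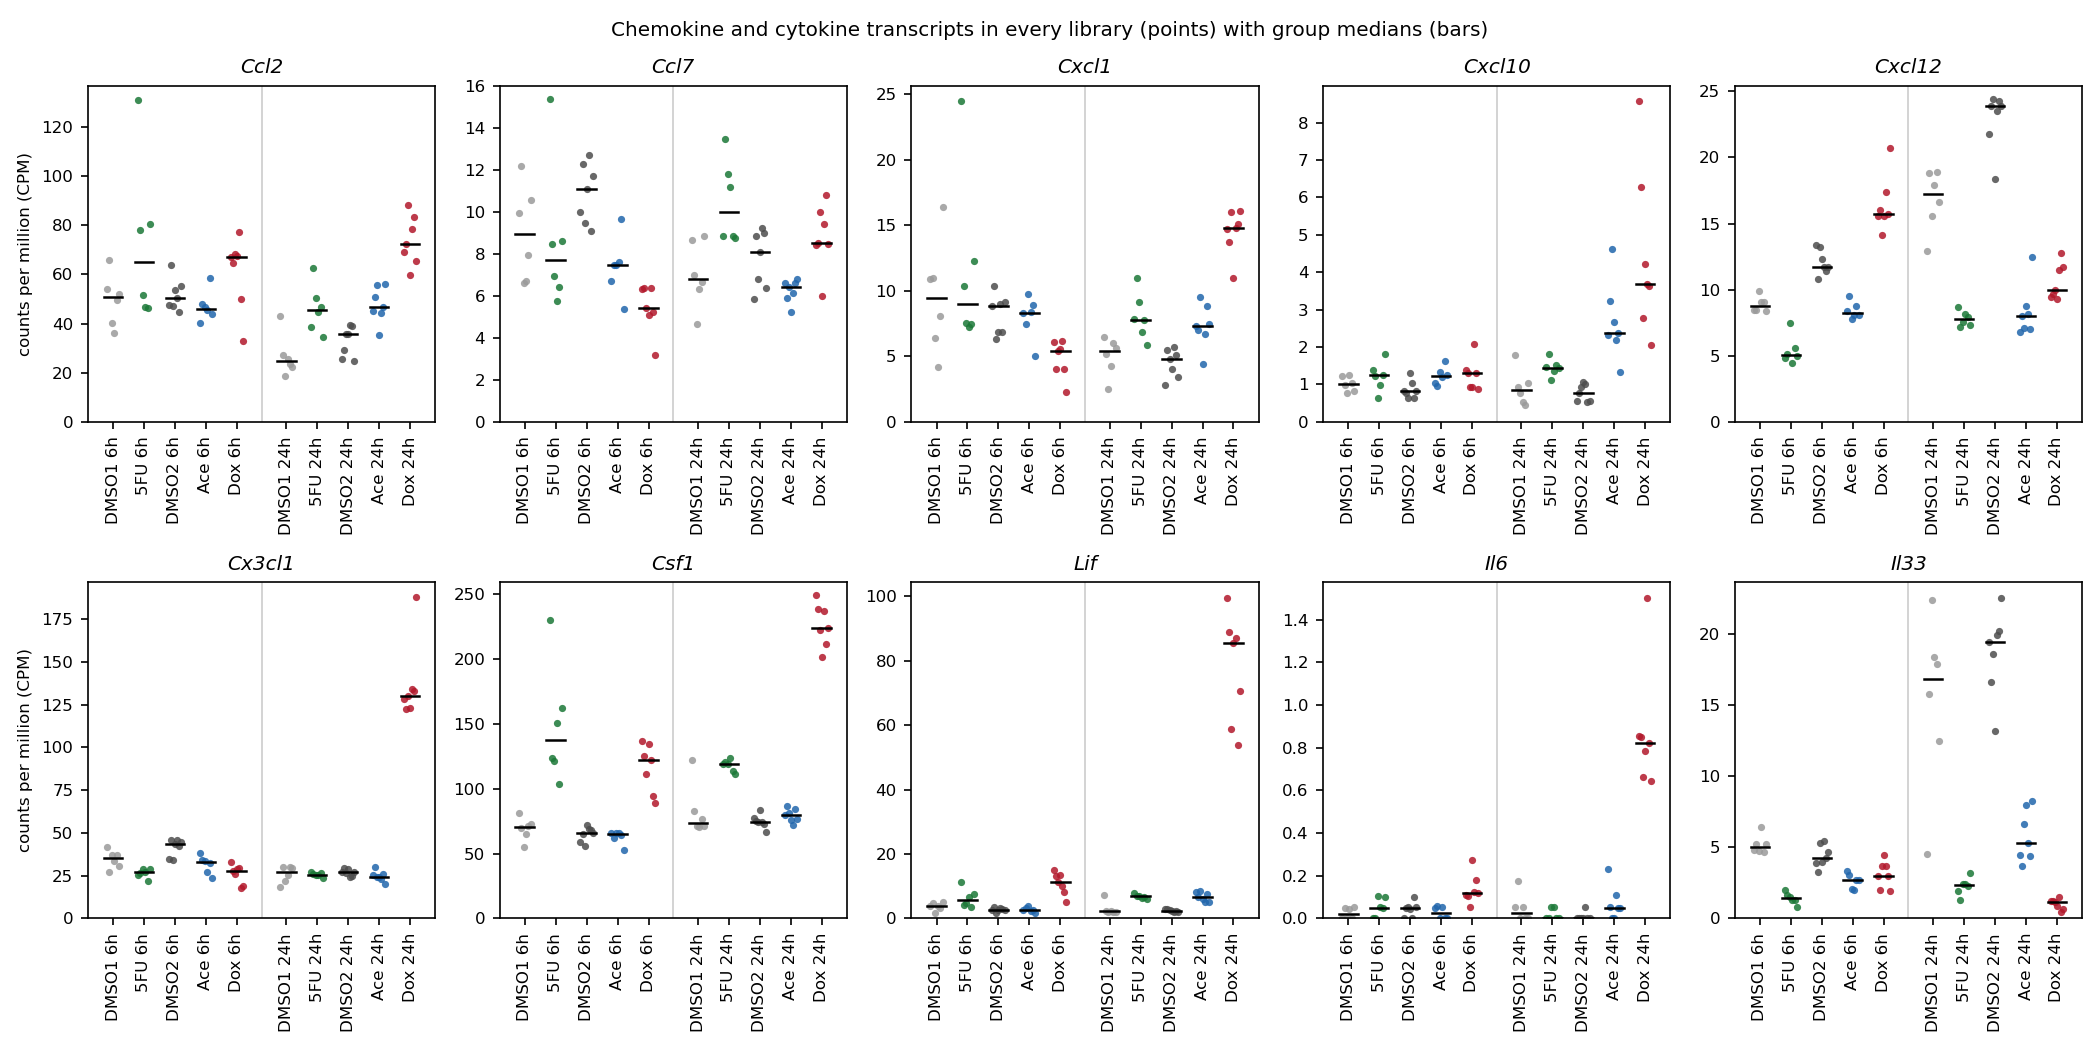
CPM of the 10 genes (y axis, linear from 0, with its own scale in each panel) in every library (points) of the 10 groups (x axis), with group medians as bars. Dox at 24 hours had the highest median for 7 of the 10 genes, Il33 was lowest there, Ccl7 was highest in DMSO2 at 6 hours, and Cxcl12 was highest in DMSO2 at 24 hours.

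**Figure D3:**
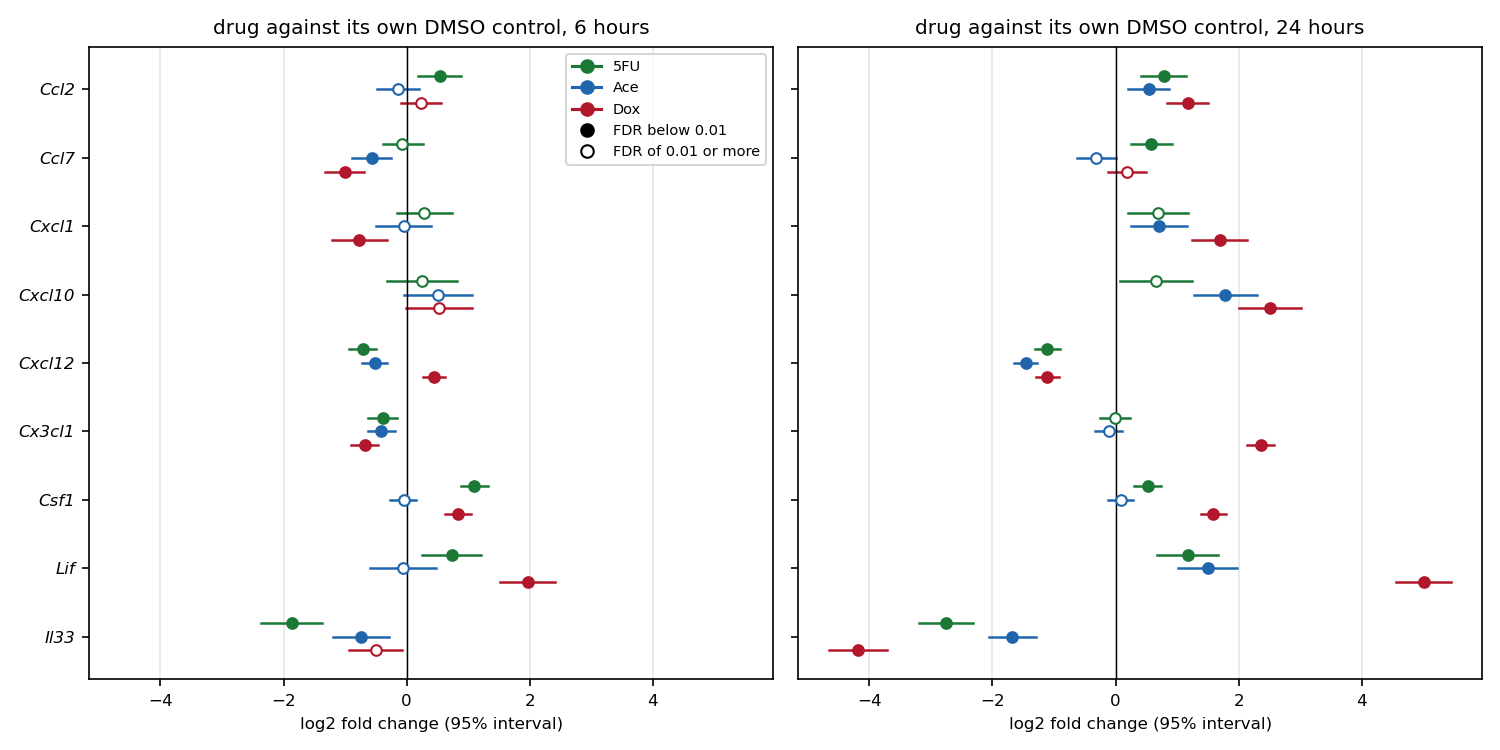
Log2 fold change of 9 genes in each drug against its own DMSO control (x axis) at 6 hours (left) and 24 hours (right), with 95% intervals; filled points had an FDR below 0.01. Il6 is not drawn, because its counts were near 0 in the controls. At 24 hours Il33 and Cxcl12 lie left of 0 in every drug, and Lif and Ccl2 lie right of it.

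Ccl2, the main monocyte chemoattractant, was higher than in the control in all 3 drugs at 24 hours. At 24 hours its level was 24.6 CPM in DMSO1 (18.6 to 43.1, n = 6) and 45.7 CPM in 5FU (34.6 to 62.8, n = 6). It was 35.6 CPM in DMSO2 (24.7 to 39.3, n = 7), 46.7 CPM in Ace (35.2 to 56, n = 7) and 72.5 CPM in Dox (59.8 to 88.3, n = 7). The Dox libraries all lay above the DMSO2 libraries, whereas the Ace and 5FU libraries overlapped with their controls. The log2 fold change was 1.17 (SE 0.17, FDR 5.4e-09) in Dox, a 2.25-fold increase, 0.79 (SE 0.19, FDR 2.0e-04) in 5FU and 0.54 (SE 0.17, FDR 0.0067) in Ace. The increase in Ace was lost (FDR 0.011 to 0.021) when any of Ace libraries 2, 3 or 7 or DMSO2 libraries 1, 2 or 7 was left out.

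At 6 hours Ccl2 was at 50.8 CPM in DMSO1 (36.1 to 65.7, n = 6) and 64.8 CPM in 5FU (46.4 to 131.0, n = 6). It was at 50.6 CPM in DMSO2 (44.6 to 64, n = 7), 46.1 CPM in Ace (40.2 to 58.5, n = 6) and 67.1 CPM in Dox (33 to 77.2, n = 7). These ranges overlapped throughout. The increase in 5FU (log2 fold change 0.54, SE 0.18, FDR 0.0073) went down to 0.29 (FDR 0.14) without 5FU library 1, the highest, and to 0.23 (FDR 0.18) without the 6 libraries set apart. It was also lost without 5FU library 2 or 6 or DMSO1 library 3, 4, 5 or 6, with the 2 compared groups fitted alone (FDR 0.062) and with scaling by library size alone (FDR 0.018).

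Ccl7, a monocyte chemoattractant encoded next to Ccl2, did not follow it. At 6 hours it fell in Dox, from 11.1 CPM in DMSO2 (9.11 to 12.7, n = 7) to 5.43 CPM (3.17 to 6.40, n = 7), with no overlap (log2 fold change -1.0, SE 0.16, FDR 1.2e-07). It also fell in Ace at 6 hours, to 7.49 CPM (5.37 to 9.67, n = 6; log2 fold change -0.57, SE 0.16, FDR 0.0032), and this call was lost without Ace library 6 (FDR 0.019). In 5FU at 6 hours it was at 7.72 CPM (5.76 to 15.4, n = 6) against 8.96 CPM in DMSO1 (6.63 to 12.2, n = 6) and did not pass the test (FDR 0.75).

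At 24 hours 5FU was the drug in which Ccl7 was called, at 10.0 CPM (8.77 to 13.5, n = 6) against 6.83 CPM in DMSO1 (4.67 to 8.88, n = 6), with a log2 fold change of 0.58 (SE 0.17, FDR 0.0023). The ranges overlapped slightly, and the call was lost without DMSO1 library 3, the lowest (FDR 0.013). In Dox it was at 8.55 CPM (6.02 to 10.8, n = 7), in Ace at 6.43 CPM (5.26 to 6.83, n = 7) and in DMSO2 at 8.08 CPM (5.88 to 9.25, n = 7). Neither passed the test (log2 fold change 0.18 with a 95% interval of -0.13 to 0.49 in Dox, and -0.31 with FDR 0.11 in Ace). Ccl7 was thus the gene of the 10 that was not called in Dox at 24 hours.

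Cxcl1, a neutrophil chemoattractant, turned from lower to higher between the Dox time points. At 6 hours it was at 8.86 CPM in DMSO2 (6.33 to 10.4, n = 7) and 5.43 CPM in Dox (2.29 to 6.16, n = 7), without overlap. It fell by 0.77 on the log2 scale (SE 0.23, FDR 0.0023), a call that was lost without Dox library 7, the lowest (-0.65, FDR 0.011). At 24 hours it was at 4.83 CPM in DMSO2 (2.80 to 5.69, n = 7) and 14.8 CPM in Dox (11 to 16.1, n = 7), again without overlap, a 3.23-fold increase (log2 fold change 1.69, SE 0.23, FDR 5.7e-10). The Dox effect at 24 hours differed from that at 6 hours by 2.46 (SE 0.32, FDR 6.0e-10).

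In Ace, Cxcl1 was at 8.33 CPM at 6 hours (5.06 to 9.74, n = 6) and 7.34 CPM at 24 hours (4.38 to 9.49, n = 7). Only the later value was called (log2 fold change 0.71, SE 0.23, FDR 0.0090), narrowly. Leaving out any of Ace libraries 1, 2, 3, 5, 6 or 7 or DMSO2 libraries 1, 3, 4, 6 or 7 moved it past the threshold (FDR up to 0.028). In 5FU it was at 8.98 CPM at 6 hours (7.20 to 24.5, n = 6) against 9.46 CPM in DMSO1 (4.19 to 16.4, n = 6), and at 7.79 CPM at 24 hours (5.88 to 11, n = 6) against 5.40 CPM (2.54 to 6.49, n = 6). The 24-hour value missed the threshold (log2 fold change 0.69, SE 0.25, FDR 0.012) and passed it without 5FU library 4 or 6 or DMSO1 library 1 or 5 (FDR 0.0063 to 0.0094), without the 6 libraries set apart (0.78, FDR 0.0019) and with the 2 compared groups fitted alone (FDR 0.0043). Cxcl1 is one of a group of related genes that includes Cxcl2 and Cxcl3, and kallisto shares out reads that match more than 1 transcript, so a part of its counts is uncertain.

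Cxcl10, an interferon-inducible chemokine, rose at 24 hours in Ace and Dox from counts of 10 to 20 per DMSO2 library. Its level was 0.771 CPM in DMSO2 (0.521 to 1.07, n = 7), 2.37 CPM in Ace (1.34 to 4.63, n = 7) and 3.69 CPM in Dox (2.06 to 8.57, n = 7). All Ace and all Dox libraries lay above all DMSO2 libraries, and the libraries of each drug spread more than 3-fold among themselves. The log2 fold change was 1.78 (SE 0.26, FDR 4.5e-08) in Ace and 2.51 (SE 0.26, FDR 7.2e-14) in Dox.

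In 5FU at 24 hours Cxcl10 was at 1.45 CPM (1.13 to 1.81, n = 6) against 0.853 CPM in DMSO1 (0.443 to 1.78, n = 6) and was not called (log2 fold change 0.66, SE 0.29, FDR 0.045). The highest DMSO1 library was library 1, and without it the log2 fold change was 0.97 (FDR 0.0049), as it was 0.96 (FDR 0.0037) without the 6 libraries set apart. At 6 hours the medians were 1.01 CPM in DMSO1, 1.25 CPM in 5FU, 0.819 CPM in DMSO2, 1.23 CPM in Ace and 1.30 CPM in Dox, over a range of 0.627 to 2.07 CPM, and no drug passed the test.

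Cx3cl1, the membrane-tethered ligand fractalkine, also changed direction in Dox. At 6 hours it was at 43.7 CPM in DMSO2 (34.2 to 46.1, n = 7) and 28 CPM in Dox (17.6 to 33, n = 7), a decrease without overlap (log2 fold change -0.68, SE 0.11, FDR 1.4e-07). At 24 hours it was at 26.9 CPM in DMSO2 (24.2 to 29.3, n = 7) and 129.8 CPM in Dox (122.1 to 187.8, n = 7). The lowest Dox library, at 122.1 CPM, exceeded every library outside that group, the highest of which was at 46.1 CPM in DMSO2 at 6 hours. The increase was 5.12-fold (log2 fold change 2.36, SE 0.11, FDR 2.0e-29), and the Dox effect differed between the time points by 3.04 (SE 0.15, FDR 1.6e-26).

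Cx3cl1 also fell at 6 hours in Ace, to 32.9 CPM (23.5 to 38, n = 6; log2 fold change -0.41, SE 0.11, FDR 0.0023), and in 5FU, to 26.9 CPM (21.6 to 28.6, n = 6) from 35.2 CPM in DMSO1 (27.3 to 41.9, n = 6; log2 fold change -0.39, SE 0.12, FDR 0.0034). These ranges overlapped with the controls, and the calls were lost without Ace library 6 (FDR 0.018), 5FU library 5 (FDR 0.014) or DMSO1 library 1 (FDR 0.017). At 24 hours it was at 24.3 CPM in Ace (20 to 30.3, n = 7), and at 25.5 CPM in 5FU (23.4 to 27, n = 6) against 27.4 CPM in DMSO1 (18.2 to 30.1, n = 6). The 24-hour log2 fold changes were -0.11 in Ace (95% interval -0.33 to 0.11) and -0.01 in 5FU (95% interval -0.25 to 0.23).

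Cxcl12, the ligand of Cxcr4, fell in all 3 drugs at 24 hours. In DMSO2 it was at 23.9 CPM (18.4 to 24.4, n = 7), in Ace at 8.01 CPM (6.79 to 12.5, n = 7) and in Dox at 9.95 CPM (9.28 to 12.8, n = 7). In DMSO1 it was at 17.3 CPM (12.9 to 18.9, n = 6) and in 5FU at 7.74 CPM (7.14 to 8.67, n = 6). None of the drug groups overlapped with its control. The log2 fold change was -1.46 (SE 0.096, FDR 3.4e-20) in Ace, -1.11 (SE 0.095, FDR 7.8e-17) in Dox and -1.11 (SE 0.11, FDR 4.5e-14) in 5FU.

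At 6 hours the drugs split. Cxcl12 was at 11.7 CPM in DMSO2 (10.8 to 13.4, n = 7), 8.25 CPM in Ace (7.79 to 9.51, n = 6) and 15.7 CPM in Dox (14.1 to 20.7, n = 7), lower in every Ace library and higher in every Dox library. It was at 8.76 CPM in DMSO1 (8.36 to 9.87, n = 6) and 5.08 CPM in 5FU (4.42 to 7.48, n = 6), again without overlap. The log2 fold change was 0.45 (SE 0.094, FDR 3.0e-05) in Dox, -0.52 (SE 0.10, FDR 3.0e-05) in Ace and -0.71 (SE 0.11, FDR 1.7e-07) in 5FU. The difference between Dox and Ace at 6 hours was 0.96 (SE 0.10, FDR 8.6e-13).

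Cxcl12 was also the gene of the 10 that differed between the controls. DMSO1 was lower than DMSO2 by 0.44 on the log2 scale at 6 hours (SE 0.10, FDR 6.5e-04), where 6.60% of all genes were called lower, and the ranges did not overlap, as was so for 5.07% of all genes. At 24 hours the difference was -0.45 (SE 0.096, FDR 0.0070), where 0.295% were called lower. The 24-hour call was lost when any of DMSO1 libraries 1, 3 or 6 or DMSO2 libraries 2, 3, 5, 6 or 7 was left out (FDR 0.013 to 0.043), without the 6 libraries set apart (-0.37, FDR 0.021), with the 2 compared groups fitted alone (FDR 0.019) and with scaling by library size alone (-0.40, FDR 0.017).

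Csf1, the macrophage colony-stimulating factor, rose early in 5FU and Dox and not in Ace. At 6 hours it was at 70.6 CPM in DMSO1 (55.3 to 81.6, n = 6) and 137.2 CPM in 5FU (103.5 to 230.2, n = 6). It was at 66.1 CPM in DMSO2 (56.2 to 72.1, n = 7), 65 CPM in Ace (52.8 to 66, n = 6) and 122.2 CPM in Dox (88.8 to 136.5, n = 7). Neither 5FU nor Dox overlapped with its control, and the log2 fold change was 1.10 (SE 0.11, FDR 9.6e-13) in 5FU and 0.84 (SE 0.11, FDR 2.2e-10) in Dox. In Ace it was -0.05 (95% interval -0.27 to 0.16).

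At 24 hours Csf1 was at 74.5 CPM in DMSO2 (66.8 to 83.9, n = 7), 79.5 CPM in Ace (72.0 to 86.7, n = 7) and 223.9 CPM in Dox (201.5 to 249.2, n = 7). The Dox libraries lay above all DMSO2 and all Ace libraries, and the increase was 3.02-fold (log2 fold change 1.59, SE 0.11, FDR 1.0e-21). In 5FU it was at 119.1 CPM (111.0 to 123.8, n = 6) against 73.9 CPM in DMSO1 (70.4 to 122.1, n = 6), with a log2 fold change of 0.52 (SE 0.11, FDR 6.3e-05). The overlap came from DMSO1 library 1, at 122.1 CPM, since the other DMSO1 libraries reached 82.9 CPM. The 5FU effect was smaller at 24 than at 6 hours (difference -0.58, SE 0.16, FDR 0.0017), and this was lost without 5FU library 1 at 6 hours (-0.42, FDR 0.011), without DMSO1 library 1 at 24 hours (-0.44, FDR 0.011), without the 6 libraries set apart (-0.22, FDR 0.093) and with the compared groups fitted alone (FDR 0.022).

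Lif, a gp130 cytokine that acts on cardiomyocytes, had the largest fitted increase among the 9 genes with counts throughout. In Dox it was at 11.4 CPM at 6 hours (5.17 to 14.9, n = 7) and 85.4 CPM at 24 hours (53.9 to 99.4, n = 7). In DMSO2 it was at 2.75 CPM at 6 hours (1.83 to 3.66, n = 7) and 2.37 CPM at 24 hours (1.97 to 2.81, n = 7). The Dox libraries lay above all DMSO2 libraries at both times. The increase was 3.91-fold at 6 hours (log2 fold change 1.97, SE 0.23, FDR 1.5e-11) and 32.1-fold at 24 hours (log2 fold change 5.01, SE 0.23, FDR 8.0e-30).

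In Ace, Lif was at 2.67 CPM at 6 hours (1.75 to 3.74, n = 6; log2 fold change -0.06, 95% interval -0.60 to 0.47) and 6.76 CPM at 24 hours (5.14 to 8.61, n = 7), above all DMSO2 libraries (log2 fold change 1.5, SE 0.24, FDR 4.2e-07). In 5FU it was at 5.77 CPM at 6 hours (3.63 to 11.2, n = 6) against 3.88 CPM in DMSO1 (1.81 to 5.16, n = 6). The log2 fold change of 0.73 (SE 0.24, FDR 0.0085) went down to 0.49 (FDR 0.085) without 5FU library 1 and to 0.34 (FDR 0.11) without the 6 libraries set apart. It was also lost without 5FU library 4 or 6 or DMSO1 library 1, 3, 4 or 5, with the 2 compared groups fitted alone (FDR 0.039) and with scaling by library size alone (FDR 0.017).

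At 24 hours Lif was at 6.91 CPM in 5FU (6.03 to 7.85, n = 6) and 2.16 CPM in DMSO1 (1.84 to 7.38, n = 6). DMSO1 library 1, at 7.38 CPM, lay within the 5FU range, while the other DMSO1 libraries were at 2.36 CPM or less. The log2 fold change was 1.17 (SE 0.26, FDR 6.1e-05) with this library and 1.68 (FDR 1.3e-10) without the 6 libraries set apart. Thus Lif was the cytokine of the 10 that was called higher in every drug at 24 hours beside Ccl2.

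Il6, an acute-phase cytokine of the same family as Lif, was near 0. It had 164 counts over the 65 libraries, 0 counts in 25 libraries, and 3 counts or fewer in every library of 7 groups. Those 7 groups are both controls, 5FU at both times and Ace at 6 hours. In Ace at 24 hours the libraries had 0 to 5 counts (10 in all), in Dox at 6 hours 1 to 5 counts (17 in all), and in Dox at 24 hours 11 to 26 counts (111 in all, 0.821 CPM, range 0.646 to 1.5). Only the Dox libraries at 24 hours, all 7 of them, reached 10 counts.

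The DMSO2 libraries at 24 hours held 1 count of Il6 in all. The ratio of Dox to DMSO2 was 112.9 after scaling, with an exact conditional 95% interval of 19.8 to 4497.7 that covers counting error only. The quasi-likelihood test called the gene higher (FDR 5.3e-15), and every Dox library lay above every DMSO2 library. In Dox at 6 hours the ratio was 3.25 (1.22 to 10.1) and in Ace at 24 hours 9.15 (1.30 to 397.3), and neither passed the test (FDR 0.018 in each). The Ace value passed without Ace library 3 or 4 or DMSO2 library 5, which holds the 1 count, and the Dox value passed without DMSO2 library 6 (FDR 0.0098). In the other comparisons 2 to 6 counts stood on each side, and a difference was not detectable at this depth.

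Il33, a nuclear alarmin of stromal cells, fell furthest. At 24 hours it was at 19.4 CPM in DMSO2 (13.2 to 22.5, n = 7), 5.31 CPM in Ace (3.69 to 8.26, n = 7) and 1.15 CPM in Dox (0.469 to 1.5, n = 7). In DMSO1 it was at 16.9 CPM (4.50 to 22.4, n = 6) and in 5FU at 2.34 CPM (1.31 to 3.20, n = 6). No drug group overlapped with its control. The decrease was 18.2-fold in Dox (log2 fold change -4.19, SE 0.24, FDR 4.9e-25), 6.75-fold in 5FU (-2.76, SE 0.23, FDR 2.4e-16) and 3.20-fold in Ace (-1.68, SE 0.19, FDR 3.3e-11).

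At 6 hours Il33 was at 5.03 CPM in DMSO1 (4.65 to 6.42, n = 6) and 1.41 CPM in 5FU (0.806 to 1.98, n = 6), a decrease without overlap (log2 fold change -1.87, SE 0.25, FDR 4.3e-09). It was at 4.21 CPM in DMSO2 (3.24 to 5.46, n = 7), 2.71 CPM in Ace (1.98 to 3.32, n = 6) and 3.01 CPM in Dox (1.94 to 4.44, n = 7), where the ranges overlapped. The decrease in Ace was called (log2 fold change -0.74, SE 0.23, FDR 0.0068) and was lost without any of Ace libraries 3, 4, 5 or 6 or DMSO2 libraries 3, 5 or 7. In Dox it was not called (log2 fold change -0.50, SE 0.22, FDR 0.034) and passed when counts were scaled by library size alone (-0.66, FDR 0.0059).

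The control wells themselves changed between 6 and 24 hours, and time and the handling of the 2 harvests cannot be told apart. Of the 10 genes, 3 were higher and 4 lower at 24 hours over DMSO1 and DMSO2 together (over all genes, 32.7% and 31.9%). Il33 rose by 1.82 (SE 0.14, FDR 6.1e-18) and Cxcl12 by 0.92 (SE 0.070, FDR 1.6e-18). Both were also lower in every drug at 24 hours, comparisons that share these control wells. Cxcl1 fell by 0.90 (SE 0.17, FDR 3.6e-06), Ccl2 by 0.77 (SE 0.13, FDR 1.8e-07), Cx3cl1 by 0.53 (SE 0.081, FDR 3.0e-08) and Ccl7 by 0.42 (SE 0.11, FDR 8.3e-04). Csf1 rose by 0.23 (SE 0.078, FDR 0.0077), which was lost (FDR 0.011 to 0.052) without DMSO1 library 3 or 4 at 6 hours or 1, 2 or 5 at 24 hours, or DMSO2 library 3 or 6 at 6 hours or 1 or 4 at 24 hours, with a stricter filter on low counts (FDR 0.013) and without the 6 libraries set apart (0.12, FDR 0.038). Lif was at -0.27 (SE 0.19, FDR 0.19), and at -0.61 (FDR 1.8e-04) without the 6 libraries set apart.

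The medians of the drug wells at both times are set side by side here, since the control level moved. Il33 in Ace was at 2.71 CPM at 6 hours and 5.31 CPM at 24 hours, and in 5FU at 1.41 and 2.34 CPM, while in Dox it was at 3.01 and 1.15 CPM. Cxcl12 in Ace was at 8.25 and 8.01 CPM, in 5FU at 5.08 and 7.74 CPM, and in Dox at 15.7 and 9.95 CPM. Of the medians of Il33, only that in Dox was lower at 24 hours. Ccl2 in Ace was at 46.1 and 46.7 CPM, in 5FU at 64.8 and 45.7 CPM, and in Dox at 67.1 and 72.5 CPM. Cxcl1 in Ace was at 8.33 and 7.34 CPM, in 5FU at 8.98 and 7.79 CPM, and in Dox at 5.43 and 14.8 CPM. The 24-hour calls of Ccl2 in Ace and 5FU and of Cxcl1 in Ace thus stand against controls that had fallen.

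A change of the drug's effect with time was tested for each gene. In Dox all 10 genes passed, 8 with an effect that was more positive at 24 hours and 2 (Il33 and Cxcl12) more negative, where 34% and 30.8% of all genes passed. In Ace, Lif was more positive (difference 1.56, SE 0.37, FDR 0.0011) and Cxcl12 more negative (-0.94, SE 0.14, FDR 3.9e-07), where 5.58% and 6.06% of all genes passed. In 5FU only Csf1 passed, as more negative (19.2% of all genes, with 20.3% more positive). Without the 6 libraries set apart, 6 genes passed in 5FU (Ccl2, Ccl7, Cxcl1 and Lif more positive, Cxcl12 and Il33 more negative). In Ace 5 passed (Ccl2, Cxcl10 and Il33 besides Lif and Cxcl12). The 5FU count thus depends on a few libraries. None of the libraries set apart is an Ace or DMSO2 library, and 5 also passed in Ace with the compared groups fitted alone. The Ace count thus depends on which groups are fitted together.

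Dox and Ace were compared directly. At 24 hours 9 genes were higher and 1 lower in Dox (over all genes, 40.7% and 39.9%). Among the 9 genes with counts throughout, the largest increases were Lif (3.51, SE 0.20, FDR 9.6e-25), Cx3cl1 (2.47, SE 0.11, FDR 2.4e-30) and Csf1 (1.51, SE 0.11, FDR 1.2e-20), in each of which every Dox library lay above every Ace library. Il33 was lower in Dox (-2.51, SE 0.25, FDR 2.6e-14). Cxcl10 was higher in Dox by 0.73 (SE 0.22, FDR 0.0020), a call that was lost without Dox library 1, the highest (0.48, FDR 0.034), and with the 2 groups fitted alone (0.71, FDR 0.030). Cxcl12 was higher in Dox by 0.35 (SE 0.099, FDR 9.8e-04), which was lost with the 2 groups fitted alone (0.33, FDR 0.019). At 6 hours 4 genes were higher and 1 lower in Dox than in Ace (30.6% and 31.4%), with Lif at 2.03 (SE 0.24, FDR 4.6e-11) and Csf1 at 0.89 (SE 0.11, FDR 1.7e-10). The calls of Cxcl1 as lower (-0.73, SE 0.24, FDR 0.0058) and of Il6 as higher, from 17 counts against 3, were lost without the libraries set apart (FDR 0.015 and 0.023). The Cxcl1 call was also lost without Ace library 1, 3, 4 or 5 or Dox library 2, 6 or 7 alone, and Il6 without Ace library 3, 5 or 6 or Dox library 4. DESeq2 did not call Il6 either (adjusted p = 0.015). Ccl2 was not called (0.38, SE 0.17, FDR 0.048) and passed without the 6 libraries set apart (0.52, FDR 0.0011).

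Dox and 5FU had separate controls, so their effects were compared as a difference of fold changes. At 24 hours the Dox effect exceeded that of 5FU for 6 genes and was below it for 1 (over all genes, 35.8% and 35.4%). Lif differed by 3.84 (SE 0.35, FDR 2.1e-15), Cx3cl1 by 2.37 (SE 0.16, FDR 1.0e-20), Cxcl10 by 1.85 (SE 0.40, FDR 3.0e-05) and Csf1 by 1.08 (SE 0.15, FDR 5.5e-09). Il33 fell further in Dox (-1.43, SE 0.34, FDR 1.5e-04). Cxcl1 differed by 1.0 (SE 0.34, FDR 0.0062), a call lost without 5FU library 6, DMSO1 library 1 or 5 or DMSO2 library 1 or 7. The difference in Cxcl12 was 0.00 (FDR 1.0).

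At 6 hours the Dox effect exceeded that of 5FU for 3 genes and was below it for 2 (22% and 24.0% of all genes). Il33 differed by 1.37 (SE 0.34, FDR 4.0e-04), Lif by 1.24 (SE 0.34, FDR 0.0013) and Cxcl12 by 1.16 (SE 0.15, FDR 5.0e-10). Ccl7 differed by -0.94 (SE 0.23, FDR 4.1e-04) and Cxcl1 by -1.06 (SE 0.32, FDR 0.0042), and neither passed without the 6 libraries set apart (-0.47, FDR 0.047, and -0.49, FDR 0.15). The Cxcl1 difference was also lost with the compared groups fitted alone (FDR 0.027), without 5FU library 1 (-0.69, FDR 0.041), DMSO1 library 4 or Dox library 7. The difference in Csf1 was -0.26 (95% interval -0.57 to 0.04, FDR 0.14).

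At 6 hours Ace and 5FU differed in Csf1 (-1.15, SE 0.16, FDR 1.7e-08) and Il33 (1.13, SE 0.34, FDR 0.0059), where 13.8% of all genes passed as lower and 17.1% as higher. The Il33 difference was lost without 5FU library 6, Ace library 1 or 2, DMSO1 library 4 or DMSO2 library 2 (FDR 0.011 to 0.016). Ace and 5FU differed at 24 hours in Ccl7 (-0.89, SE 0.23, FDR 0.0012) and Il33 (1.08, SE 0.30, FDR 0.0019), where 18.2% of all genes passed as lower and 19.1% as higher. The Il33 difference was lost with the compared groups fitted alone (1.09, FDR 0.012). Csf1 was not called (-0.43, SE 0.15, FDR 0.017) and passed in that fit (-0.42, FDR 0.0040) and without the 6 libraries set apart (-0.56, FDR 6.3e-06).

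Of 20 listed symbols for receptors of these ligands, 12 had a row. In Dox at 24 hours 3 were higher and 5 lower (median log2 fold change -0.08), against 40.4% and 41% of all genes. Lifr, the ligand-binding chain for Lif, fell from 100.8 CPM in DMSO2 (88.3 to 114.7) to 21.6 CPM in Dox (20 to 24.1), a log2 fold change of -2.18 (SE 0.074, FDR 8.5e-37), in the libraries in which Lif rose. Il6st, the shared gp130 chain, fell by 0.43 on the log2 scale (SE 0.057, FDR 3.9e-10), and Il6r, the Il6-binding chain, was at -0.01 (SE 0.085, FDR 0.92). Csf1r, the receptor of Csf1 on macrophages, fell from 18.3 CPM (15.2 to 22.6) to 9.23 CPM (7.16 to 11.1), a log2 fold change of -1.06 (SE 0.079, FDR 1.9e-19).

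The Il33 receptor chains went their own ways. Il1rap, the accessory chain, rose by 2.05 (SE 0.086, FDR 8.4e-32) in Dox at 24 hours, and Il1rl1, the Il33-binding chain, rose by 0.50 (SE 0.10, FDR 8.4e-06) there and fell by 2.44 (SE 0.15, FDR 1.2e-21) in 5FU and by 0.77 (SE 0.11, FDR 1.5e-08) in Ace. Cxcr4 fell at 24 hours by 0.49 in Dox (SE 0.12, FDR 1.3e-04), 0.84 in Ace (SE 0.12, FDR 1.6e-08) and 0.61 in 5FU (SE 0.13, FDR 3.5e-05), as did Ackr3, the scavenger receptor of Cxcl12, by 1.13 (SE 0.10, FDR 1.5e-15), 0.56 (SE 0.10, FDR 3.6e-06) and 0.73 (SE 0.11, FDR 6.7e-08). Cxcr3, the Cxcl10 receptor, had 2 counts or fewer in every DMSO2 library at 24 hours and up to 26 counts in Dox (0.663 to 1.21 CPM). Receptors of Ccl2, Cx3cl1 and Cxcl1 on leukocytes (Ccr2, Cx3cr1 and Cxcr2) had no row under these symbols.

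**Figure D4:**
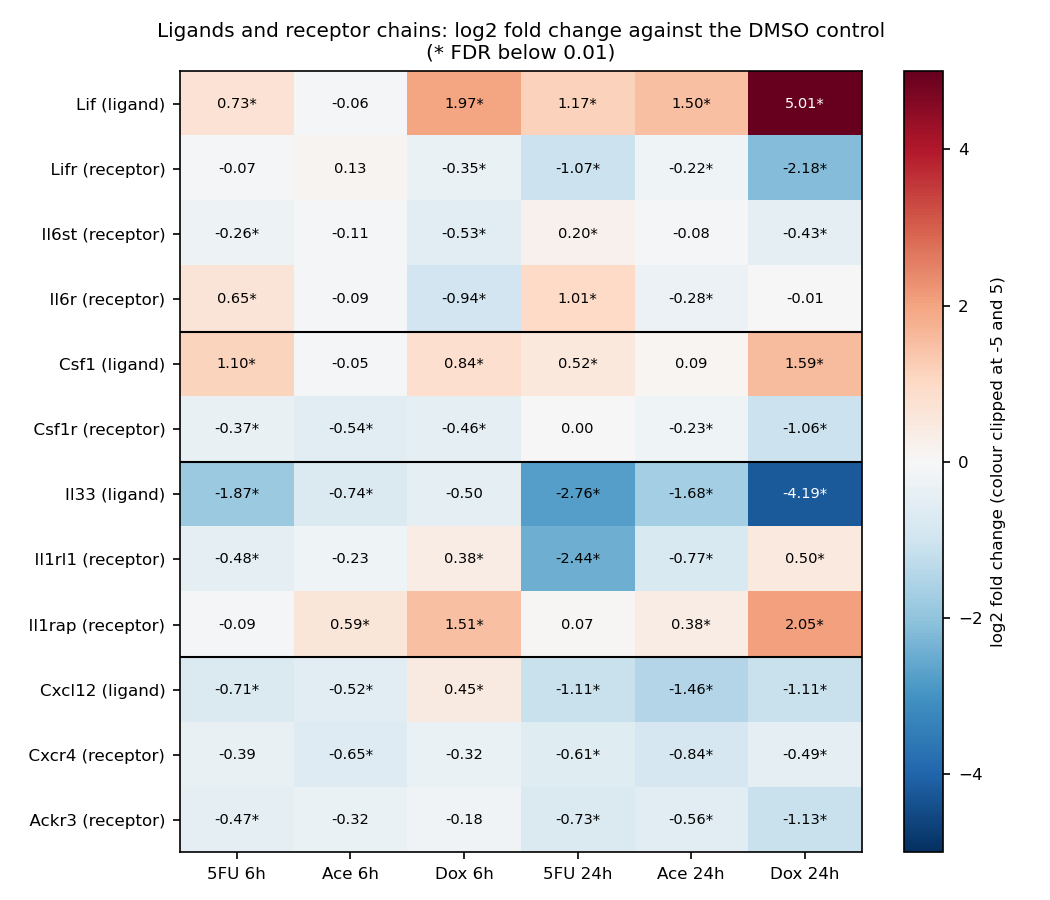
Log2 fold change against the DMSO control (color and numbers) for 4 ligands and receptor chains (rows) in each drug and time (columns), where an asterisk marks an FDR below 0.01 and black lines separate the ligand groups. Il6r, the Il6-binding chain, is drawn in the group of Lif beside the shared chain Il6st, and Il6 itself is not drawn. In Dox at 24 hours Lif (5.01) stands above Lifr (-2.18), and Csf1 (1.59) above Csf1r (-1.06).

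Among other chemokines, 18 of 31 listed genes had a row. In Dox at 24 hours 8 were higher and 5 lower (median log2 fold change 0.27), against 40.4% and 41% of all genes. Cxcl16, another membrane-tethered chemokine, rose in Dox at both times (0.86 at 6 hours, SE 0.072, FDR 1.1e-16, and 0.73 at 24 hours, SE 0.072, FDR 2.7e-14) and fell in Ace (-0.73 at 24 hours, SE 0.075, FDR 1.6e-12). Genes next to the 10 on the chromosome were looked at after their values were seen. Cxcl2, beside Cxcl1, rose in Dox at 24 hours by 2.92 (SE 0.42, FDR 5.0e-09) from counts of 5 or fewer. Cxcl11, beside Cxcl10, went the other way and fell by 1.90 (SE 0.17, FDR 4.3e-16), from 6.58 CPM in DMSO2 (5.80 to 10.1) to 1.87 CPM (1.5 to 2.57). Ccl11, beside Ccl7, did not pass the test (0.27, SE 0.25, FDR 0.32).

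Among other cytokines, 27 of 45 listed genes had a row. At 24 hours 10 of them rose and 9 fell in Dox, 0 rose and 10 fell in Ace, and 1 rose and 8 fell in 5FU. Over all genes, 40.4% rose and 41% fell in Dox, 18.2% and 19.1% in Ace, and 28% and 27.8% in 5FU. Kitlg, the stem cell factor, rose in Dox at 24 hours by 1.16 (SE 0.10, FDR 3.6e-16). Spp1 (osteopontin) fell there by 0.62 (SE 0.066, FDR 4.8e-13), in Ace by 1.02 (SE 0.067, FDR 2.2e-20) and in 5FU by 0.92 (SE 0.072, FDR 1.6e-17). Tnfsf12 (TWEAK) fell by 0.64 in Dox (SE 0.077, FDR 2.0e-11) and by 0.90 in Ace (SE 0.077, FDR 1.5e-15).

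The lists of pathways that act on these genes moved in both directions. All 31 NF-kB pathway genes had a row. In Dox at 24 hours 15 were higher and 10 lower (median 0.08), against 40.4% and 41% of all genes. The inhibitor Nfkbie (1.39, SE 0.076, FDR 6.9e-26) and the cofactor Nfkbiz (1.07, SE 0.11, FDR 2.2e-13) rose, while Nfkb1 (-1.14, SE 0.057, FDR 1.0e-27), Bcl3 (-1.70, SE 0.14, FDR 4.0e-17) and Tnip1 (-2.44, SE 0.055, FDR 2.1e-46) fell. In Dox at 6 hours 8 were higher and 14 lower (median -0.20), against 31.5% and 32.7% of all genes.

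Of 21 JAK-STAT and feedback genes of 22 listed, 9 were higher and 5 lower in Dox at 24 hours (median 0.12). Over all genes, 40.4% were higher and 41% lower there. Cebpd, a transcription factor induced by gp130 ligands, rose by 1.75 (SE 0.090, FDR 3.1e-27), and Stat3, the main transcription factor downstream of gp130, fell by 0.65 (SE 0.050, FDR 6.3e-19). Of 9 regulators of cytokine mRNA decay, 6 were higher and 1 lower (median 0.89), among them Arid5a, which stabilizes Il6 mRNA (2.24, SE 0.12, FDR 3.3e-26), and Zc3h12a (1.90, SE 0.11, FDR 1.9e-25) and Zfp36 (1.09, SE 0.11, FDR 6.3e-14), which degrade it.

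Of 21 interferon-response genes of 24 listed, 12 were higher and 4 lower in Dox at 24 hours (median 0.55), 14 and 1 in 5FU (0.66) and 7 and 2 in Ace (0.08). Over all genes, 40.4% were higher and 41% lower in Dox, 28% and 27.8% in 5FU, and 18.2% and 19.1% in Ace. In Dox, Irf7 rose by 3.75 (SE 0.14, FDR 1.8e-34), Psmb9 by 3.45 (SE 0.11, FDR 7.7e-38) and Isg15 by 2.72 (SE 0.14, FDR 7.7e-28), and Ifit2 fell by 1.38 (SE 0.099, FDR 4.2e-20). Cxcl10 was called in Ace and Dox but not in 5FU, where Isg15 rose by 1.17 (SE 0.15, FDR 5.4e-10) and Ifih1 by 1.08 (SE 0.097, FDR 4.1e-15).

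Markers of other cell types in the cultures moved with the drugs, and fewer cells of a type and less RNA per cell cannot be told apart in bulk samples. At 24 hours all 10 fibroblast markers fell in each drug, where 41% of all genes fell in Dox, 19.1% in Ace and 27.8% in 5FU. Their summed level was 15265.2 to 19050.1 CPM in DMSO2, 7309.8 to 9347.9 CPM in Ace and 1952.3 to 4106.9 CPM in Dox, and 10059.0 to 20039.4 CPM in DMSO1 against 5217.1 to 5884.3 CPM in 5FU. Cxcl12 and Il33, both made by stromal cells, fell in each drug at 24 hours too, and the part of the markers in their change was not tested. At 6 hours 7 of the 10 markers fell in Ace and in Dox, and 2 in 5FU (over all genes, 15.2%, 32.7% and 24.5%). At that time Cxcl12 was higher in Dox and Il33 was not called there.

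Of 9 endothelial markers of 10 listed, 9 fell in Dox at 24 hours, 6 in Ace and 7 in 5FU, and the sum was 290.8 to 387.0 CPM in DMSO2 and 27.4 to 60.1 CPM in Dox. In Dox at 6 hours all 9 had fallen (91.1 to 145.2 CPM against 264.0 to 326.7 CPM), a time at which Cxcl12 was higher. Of 12 macrophage markers, 2 were higher and 10 lower in Dox at 24 hours, with a sum of 57.9 to 76.8 CPM against 126.7 to 154.4 CPM in DMSO2, so that Ccl2, Cxcl10, Csf1 and Lif rose where these markers were lower. Of 11 cardiomyocyte markers, 9 fell in Dox at 24 hours (15766.3 to 21930.5 CPM against 45923.0 to 59550.2 CPM). Of 12 markers of T cells, B cells and neutrophils, 4 had a row, with a sum of 13.4 CPM or less. At 24 hours this sum was lower in Dox, at 5.52 to 8.84 CPM against 10.2 to 13.4 CPM in DMSO2. Cd3g, of T cells, went the other way, with 2 counts or fewer in every library outside Dox at 24 hours and up to 23 there. Smooth muscle and pericyte markers moved both ways in Dox at 24 hours (3 of 9 rose and 5 fell), as did mesothelial markers (1 of 5 rose and 4 fell). Over all genes, 40.4% rose and 41% fell in Dox at 24 hours, and 32.7% fell in Dox at 6 hours. At 24 hours 19.1% fell in Ace and 27.8% in 5FU. The part of any of these lists in the changes of the 10 genes was not tested.

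Across the 10 groups, the order of the medians was led by Dox at 24 hours for Ccl2, Cxcl1, Cxcl10, Cx3cl1, Il6, Lif and Csf1. Neighbouring groups in the order overlapped in range with few exceptions. Dox at 24 hours stood clear of the group below it for Cx3cl1, Il6 and Lif. Csf1 in 5FU at 24 hours stood clear of Ace at 24 hours, and Cxcl12 in Dox at 6 hours stood clear of DMSO2 at 6 hours. For Ccl2, Ccl7, Cxcl1, Cxcl10 and Il33, all 9 pairs of neighbours overlapped.

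The genes most alike in pattern were sought among 10508 other named genes with a mean count of at least 100 (10509 for Cxcl10), as those with the smallest root mean square difference of centred mean log2 CPM over the 10 groups. Lif was nearest to Psrc1 (0.28) and Cfap157 (0.37), against a spread of 1.4 for Lif itself. Cx3cl1 was nearest to Hand1 (0.20) and Bid (0.22), against 0.71. Il33 was nearest to Sema3d and Frem1 (0.36 each), against 1.2. Cxcl12 was nearest to Cd200r1 (0.26) and Lyve1 (0.27), against 0.59, and Csf1 to Cdk7 (0.14) and Csnk1g1 (0.15), against 0.57. The nearest genes were Rpa2 and Gpn2 for Ccl2, Mapkap1 and Inpp5f for Ccl7, C2h5orf34 and Pdxk for Cxcl1, and Pc and Creg1 for Cxcl10, at 0.14 to 0.31.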

How the data were processed

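RNA was sequenced from 65 cultures of neonatal rat cardiomyocytes in 10 groups. The deposited table holds gene-level estimated counts that the authors made by pseudo-aligning their reads to the Ensembl rat transcriptome with kallisto 0.46.0. The deposited values are whole numbers and were not rounded here. They were scaled by TMM, and genes with 10 counts in at least 1 library were kept, which left all 14554. All groups were fitted together in R 4.3.3 with edgeR 4.0.16 (quasi-likelihood test, Benjamini-Hochberg adjustment, FDR below 0.01), for 18 comparisons. The SE was derived from the fold change and its F statistic. Log2 CPM values use a prior count of 2, and fitted fold changes use the default prior count of edgeR.

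The 10 genes, the gene lists and the tests were chosen with earlier results of these data known. From each list, at most 8 called genes with a mean count of at least 100 were named, besides receptors, neighbours on the chromosome and Cd3g. The genes nearest in pattern to Il6 are not reported here. Library numbers follow the column order of the table. Of 180 pairs of libraries within groups, none was a duplicate (lowest chi-square per gene 2.98). The fit was checked on simulated counts. Alternatives were DESeq2 1.42.0, other scalings and filters, the compared groups alone, other thresholds, each library left out, and, added after the data were seen, the 6 libraries standing apart left out. Intervals on counts cover counting error only.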

Additional observations from a re-analysis of the deposited data

Results flagged for a closer look

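In 11 of 100 sets of library values (10 genes in 10 groups), the highest or lowest library stood further from the rest than Dixon's 95% criterion allows. Chance flags about 1 in 20 such sets. DMSO1 library 1 at 24 hours was such a library for 3 genes. Its Il33 level was 4.50 CPM (others 12.5 to 22.4), its Lif level 7.38 CPM (1.84 to 2.36) and its Csf1 level 122.1 CPM (70.4 to 82.9). All 3 values lay on the side of the 5FU libraries.

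In Dox, library 7 was low for Ccl7 at 6 hours, at 3.17 CPM (5.10 to 6.40), and library 7 at 24 hours was high for Cx3cl1, at 187.8 CPM (122.1 to 134.0). Library 4 at 24 hours was low for Ccl7, at 6.02 CPM (8.41 to 10.8), and library 5 was high for Il6, at 1.5 CPM (0.646 to 0.857). Cxcl12 was low in DMSO2 library 4 at 24 hours, at 18.4 CPM (21.8 to 24.4), and high in Ace library 7 at 24 hours, at 12.5 CPM (6.79 to 8.77). Csf1 was low in Ace library 6 at 6 hours, at 52.8 CPM (61.7 to 66). The Il6 level of 0.0531 CPM in DMSO2 library 5 at 24 hours is 1 count, where the other libraries had 0.

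The effect of a drug differed between 24 and 6 hours, by the interaction term of the edgeR fit at an FDR below 0.01, in the following genes. In 5FU this was Csf1 (-0.58). In Ace it was Cxcl12 (-0.94) and Lif (1.56). In Dox it was Ccl2 (0.93), Ccl7 (1.19), Cxcl1 (2.46), Cxcl10 (1.98), Cxcl12 (-1.55), Cx3cl1 (3.04), Il33 (-3.69), Lif (3.04) and Csf1 (0.76). The fitted value for Il6 in Dox (4.39) rests on 1 control count at 24 hours and on the prior count, and no size is read from it.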

How the results depend on the processing

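No fold change called for these genes changed direction under any alternative run, each library left out included. The number of the 10 genes called in Dox at 24 hours was 9 under each alternative. A minimum log2 fold change of 1 left 2 genes in 5FU at 6 hours, 3 in 5FU at 24 hours, 0 in Ace at 6 hours, 2 in Dox at 6 hours, 0 between the controls at either time, 1 for time in the controls, 0 for the change of the 5FU effect with time and 1 for that of Ace. An FDR below 0.1 gave 2 between the controls at 6 hours, 5 for the change with time in 5FU and 7 in Ace. Scaling by library size only gave 0 between the controls at 24 hours and 2 for the change with time in 5FU, and it moved the median of all genes by -0.15 in Dox at 6 hours, 0.27 in the change of the Dox effect and -0.11 between Dox and Ace at 6 hours. The compared groups alone gave 0 between the controls at 24 hours, 0 for the change with time in 5FU and 5 in Ace. Without the 6 libraries standing apart these were 0, 6 and 5.

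With each library left out in turn, 4 to 6 genes were called in 5FU and 5 to 7 in Dox at 6 hours, 1 to 4 in Ace at 6 hours, 5 to 8 in 5FU and 4 to 7 in Ace at 24 hours, 1 between the controls at 6 hours and 0 to 1 at 24 hours, 6 to 7 for time in the controls, and 1 to 2, 2 to 4 and 10 for the change with time in 5FU, Ace and Dox. No paired analysis was possible because the columns of the table carry no replicate numbers. Depth limits Il6, and to a lesser degree Cxcl10.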
